A study of Homo sapiens with 12 samples.

Results

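The transcripts of 48 genes of the DNA replication machinery were followed in NCI-H295R, a human adrenocortical carcinoma cell line that makes cortisol. The genes were taken by symbol from a list of origin licensing, helicase, polymerase, clamp and nucleotide supply genes, and all 48 were found among the 60662 genes of the deposited table. Confluent cells of this 1 line were deprived of serum during 12 h before they received 0.1% DMSO as vehicle (VEH), 30 µM CJ28 or 30 µM metyrapone (MET) for 24 h, with 4 samples in each group. The study lists serum-free medium for the treatment as well. Metyrapone blocks the last enzymatic step of cortisol synthesis, and CJ28 is described by the study as another inhibitor of cortisol synthesis. The design text calls the 4 samples of a group biological replicates without saying whether they came from separate passages, so the p-values measure the spread between these samples.

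Before a chromosome is copied, the origin recognition complex (ORC), CDC6 and CDT1 load the MCM2-7 helicase onto DNA, which is called licensing. The kinase CDC7 with its partner DBF4, together with CDC45, MCM10 and the GINS complex, then turns the loaded helicase into a moving one, and polymerases, the PCNA clamp and its RFC loader follow it. Transcription of many of these genes rises towards S phase under E2F factors, and CCAAT boxes bound by NF-Y and CHR elements are further sequence elements known from promoters of cell cycle genes.

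Levels are given in TPM, the share of a transcript among all transcripts of a sample, which is scaled for gene length and so can be compared between genes. Since TPM keeps no read depth, the depth behind a value is unknown from the table and no counting interval can be given. Each sample listed 29463 to 31016 genes above 0. All 8 adrenocortical markers were listed, with a summed level of 272 to 283 TPM in VEH, 109 to 117 TPM in CJ28 and 271 to 285 TPM in MET. This sum thus moved with CJ28, and its part in the results below was not tested. Markers of chromaffin, fibroblast, endothelial and leukocyte cells summed to at most 1.2 TPM per list in any sample. Of these, 3 of 4 chromaffin, 4 of 5 fibroblast, 4 of 4 endothelial and 4 of 4 leukocyte genes stayed under 0.5 TPM in every sample. The adrenocortical markers HSD3B2, MC2R and INHA were low too, with means of 0.86, 1.045 and 1.67 TPM in VEH. In CJ28 they stood at 0.19, 0.35 and 0.665 TPM. The chromaffin gene CHGA had means of 0.81 TPM in VEH and 0.54 TPM in CJ28. Nuclear protein-coding genes held 21.3 to 21.4% of the TPM in CJ28, 24.3 to 24.8% in VEH and 24.1 to 24.6% in MET, which bears on every fold change below.

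Promoter sequences were searched for the elements named above, and members with large decreases carried different combinations of them. The part of these elements in the decreases was not tested. Of the 48 genes, 42 had at least 1 RefSeq promoter window of 300 bases (GRCh38.p14), and MCM4, MCM5, GINS4, POLD3, RPA2 and RPA3 had none. The 250 bases before the transcription start are shown for the 5 members with the largest decreases in CJ28 that had a searched element, in the direction of the gene, with matches in capitals. RRM2, TK1 and PCNA have 2 windows each and UHRF1 has 3, and the first window with a match was taken. Searched on both strands were TTTGGCGC, TTTCCCGC, TTTCGCGC and TTTGCCGC for E2F, CCAAT for the CCAAT box, and TTTGAA and TTCGAA for CHR. RRM2 lies on the plus strand (chr2:10122489-10122738), as do UHRF1 (chr19:4909251-4909500) and TYMS (chr18:657403-657652), while TK1 (chr17:78187053-78187302) and PCNA (chr20:5126623-5126872) lie on the minus strand.
RRM2: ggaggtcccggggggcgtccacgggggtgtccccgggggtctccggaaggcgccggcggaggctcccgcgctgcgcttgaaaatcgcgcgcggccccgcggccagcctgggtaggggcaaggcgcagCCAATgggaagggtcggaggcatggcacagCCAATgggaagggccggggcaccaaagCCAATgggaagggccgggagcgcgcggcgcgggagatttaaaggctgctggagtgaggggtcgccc
UHRF1: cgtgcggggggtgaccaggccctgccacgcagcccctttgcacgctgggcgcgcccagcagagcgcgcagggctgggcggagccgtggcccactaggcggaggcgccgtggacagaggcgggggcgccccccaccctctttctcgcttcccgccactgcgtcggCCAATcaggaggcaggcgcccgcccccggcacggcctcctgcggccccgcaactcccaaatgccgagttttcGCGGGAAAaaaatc
TK1: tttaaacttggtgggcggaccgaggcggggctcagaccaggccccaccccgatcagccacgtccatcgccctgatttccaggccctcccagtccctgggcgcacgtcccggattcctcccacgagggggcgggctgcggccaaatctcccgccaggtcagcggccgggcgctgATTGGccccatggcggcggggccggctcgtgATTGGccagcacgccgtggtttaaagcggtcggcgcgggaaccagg
PCNA: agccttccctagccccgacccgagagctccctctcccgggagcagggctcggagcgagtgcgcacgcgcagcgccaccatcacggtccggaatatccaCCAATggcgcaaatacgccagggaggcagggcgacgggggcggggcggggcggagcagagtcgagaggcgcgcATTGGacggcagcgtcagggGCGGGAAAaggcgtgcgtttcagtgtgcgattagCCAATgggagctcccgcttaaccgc
TYMS: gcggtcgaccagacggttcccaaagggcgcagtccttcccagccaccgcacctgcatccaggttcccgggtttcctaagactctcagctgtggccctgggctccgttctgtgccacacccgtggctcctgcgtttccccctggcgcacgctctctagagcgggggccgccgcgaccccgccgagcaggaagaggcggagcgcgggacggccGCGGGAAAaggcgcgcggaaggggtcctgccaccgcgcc

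Positions are those of the first letter, with -1 for the base just before the start. The RRM2 window shown held 3 CCAAT boxes, at -123, -93 and -66, and no E2F letters. PCNA held 3 as well, at -152, -79 and -25, the one at -79 as its reverse complement, together with E2F letters at -59. UHRF1 had E2F letters at -14 and a CCAAT box at -86, TK1 had CCAAT boxes in reverse at -77 and -46, and TYMS had E2F letters alone, at -39. E2F letters occurred in 21 of the 42 members (50.0%), against 3.99% of the 27305 genes of the promoter table. CCAAT occurred in 24 of the 42 (57.1%) against 39.7% of all genes, and CHR in 3 (7.14%) against 19.5%. Among the 10567 tested genes with a window the shares were 6.76%, 44.1% and 15.9% for E2F, CCAAT and CHR. Only 62.9% of tested symbols had a window, and the others could not be searched. The median log2 fold change, CJ28 against VEH, was -0.84 over the 21 members with E2F letters and -0.44 over the 21 without, while it was -0.65 with CCAAT and -0.65 without. RRM2, which fell most, was among the members without E2F letters. These are matches of letters in short windows, and no binding was measured.

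With CJ28, transcripts of nearly the whole replication apparatus were lower than with vehicle. By limma on log2(TPM + 0.1) with Benjamini-Hochberg adjustment over all 16815 genes tested, 44 of the 48 genes passed adjusted p under 0.05, 42 of them lower and 2 (ORC4 and RFC1) higher. Over all genes tested the shares were 57.0% called, 37.1% lower and 19.9% higher, so the members' share of lower calls stood at 87.5% beside that background. Of the 42, 11 fell by at least 1 log2 unit (background 6.06%), 19 by between 0.5 and 1 unit, and 12 by less. The median log2 fold change of the 48 genes was -0.65, against -0.13 over all genes. In a bulk culture, fewer cells that express these genes and less RNA per cell cannot be told apart.

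The decrease was also visible without a model. The 48 genes summed to 1178 ± 31.1 TPM in VEH (SD, n = 4), 706 ± 6.34 TPM in CJ28 and 1158 ± 14.1 TPM in MET. As a share of nuclear protein-coding TPM these sums were 0.479%, 0.331% and 0.476%. All 4 CJ28 samples lay below all 4 VEH samples for 41 of the 48 genes (background 32.7%), and above them for 2, ORC2 and ORC4 (background 17.7%).

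The choice of scaling moved all fold changes by a nearly constant amount. Median-of-ratios scaling brought the median of all genes from -0.13 to 0.01 and turned the background from 37.1% lower and 19.9% higher into 26.3% lower and 29.3% higher. Under it 40 of the replication genes were called lower and 4 higher (ORC2, ORC4, PRIM1 and RFC1), with a median of -0.50. With TPM rescaled to nuclear protein-coding genes alone, 38 were lower and 4 higher, with a median of -0.45 beside 0.09 for all 12506 genes of that fit, of which 26.3% were called lower and 39.3% higher. Relative to the median of all genes, the median of the 48 genes was -0.52 as deposited, -0.52 with median-of-ratios scaling and -0.54 with protein-coding scaling.

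**Figure D1:**
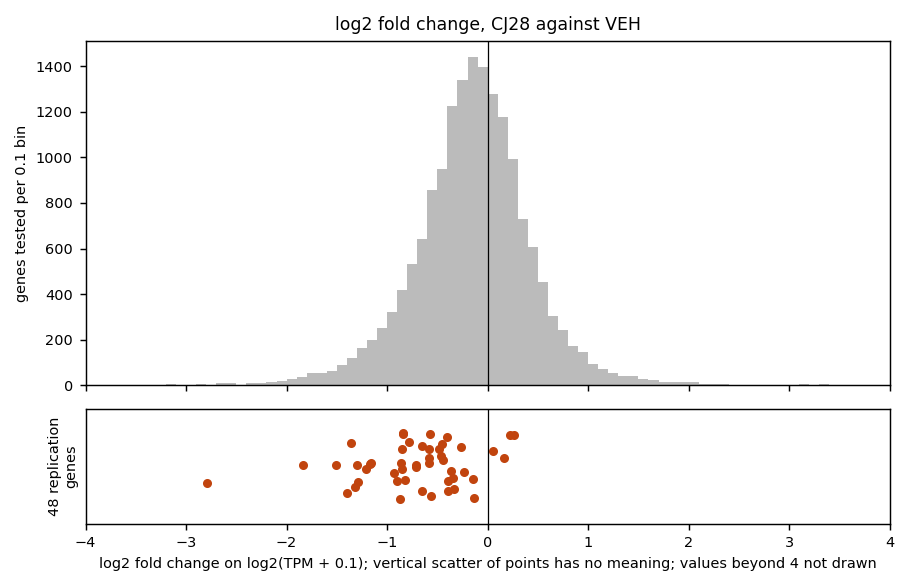
The upper panel counts genes tested by log2 fold change, CJ28 against VEH, in bins of 0.1, with the 16798 between -4 and 4 drawn and 17 beyond left off, and the lower panel marks the 48 replication genes on the same axis. The bulk of all genes is centred near -0.13, while 44 of the replication genes lie left of 0 and RRM2 lies farthest left at -2.79.

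**Figure D2:**
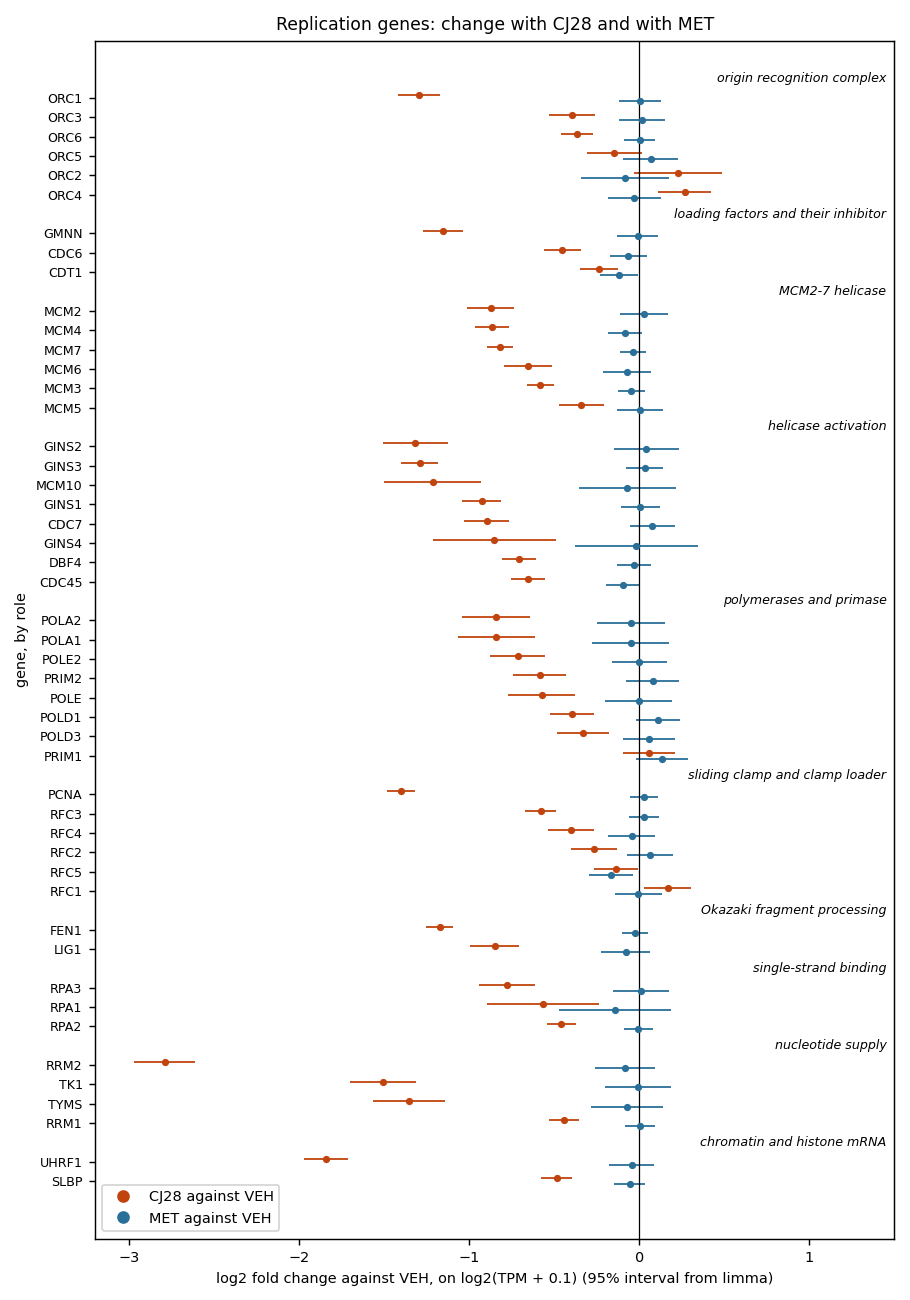
Log2 fold change against VEH with its 95% interval from limma for each replication gene, ordered by role, for CJ28 (orange) and MET (blue), 4 samples per group. CJ28 values spread from -2.79 to 0.27, whereas MET values stay between -0.17 and 0.13.

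Genes for the supply of deoxynucleotides had the lowest median log2 fold change of all roles, at -1.43, and all 4 fell. RRM2, the S-phase subunit of ribonucleotide reductase, measured 46.6, 54.8, 55.8 and 59.5 TPM in VEH, 6.98, 8.50, 7.14 and 8.32 TPM in CJ28 and 47.3, 52.8, 52.5 and 51.5 TPM in MET. The highest CJ28 sample was thus far below the lowest VEH sample, and the ratio of means was 0.143 (log2 fold change -2.79, SE 0.0816, adjusted p = 3.45e-11). Its partner RRM1, the large subunit that takes part in every form of the enzyme, measured 28.1, 29.7, 28.6 and 28.0 TPM in VEH, 20.1, 21.3, 22.2 and 20.4 TPM in CJ28 and 29.8, 28.8, 28.6 and 27.5 TPM in MET. RRM1 fell far less (log2 fold change -0.44, SE 0.0398, adjusted p = 1.06e-06), again with no overlap between CJ28 and VEH. TK1, the cytosolic thymidine kinase of the salvage route, went from 15.4 ± 1.40 TPM in VEH to 5.37 ± 0.608 TPM in CJ28 (log2 fold change -1.51, SE 0.0894, adjusted p = 2.21e-08). TYMS, thymidylate synthase of the de novo route, went from 30.4 ± 4.37 to 11.8 ± 1.28 TPM (log2 fold change -1.36, SE 0.0973, adjusted p = 1.33e-07). TYMS shares 967 exonic bases with ENOSF1 on the opposite strand, which stood at 9.14 TPM in VEH and 8.66 TPM in CJ28. The library kit keeps strand, but the strand setting of the quantification is not given in the sources used here.

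**Figure D3:**
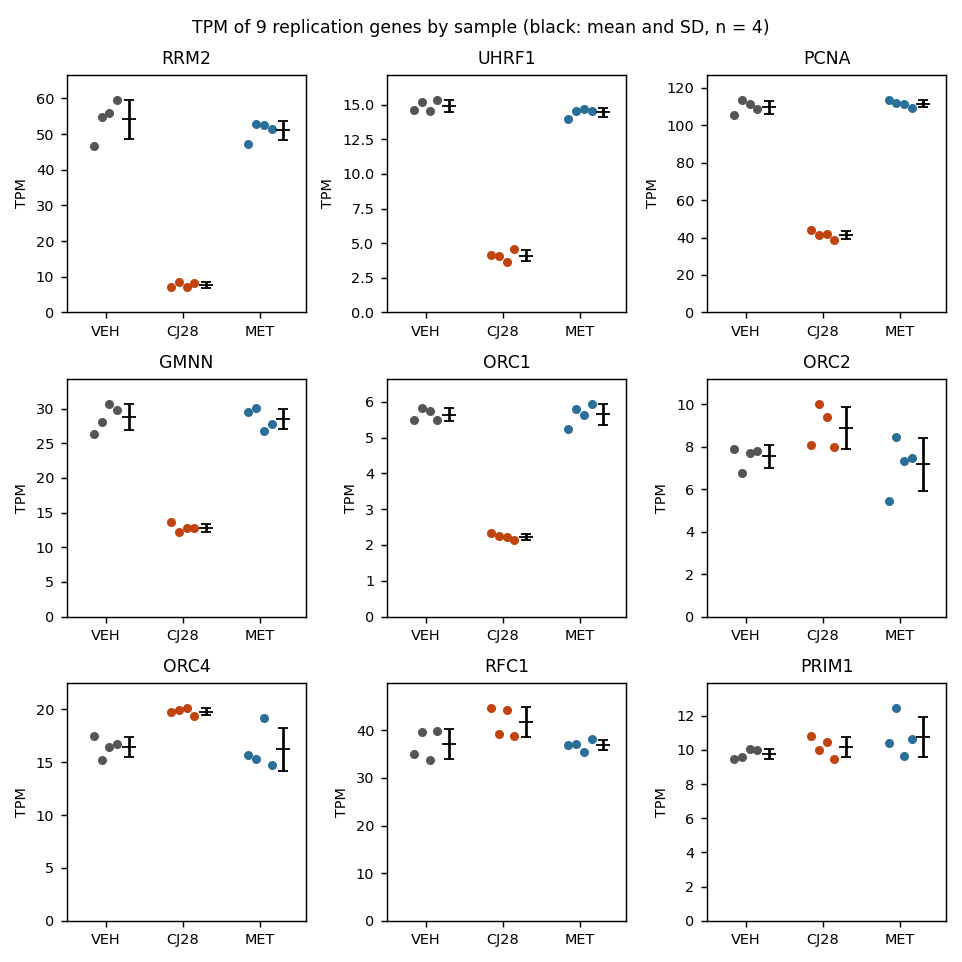
TPM by sample for 9 replication genes in VEH, CJ28 and MET, with the mean and SD (n = 4) in black beside the points. RRM2, UHRF1, PCNA, GMNN and ORC1 show CJ28 samples far below the other 8, ORC4 shows them above the 4 VEH and 4 MET samples, and the RFC1 and PRIM1 samples of CJ28 and VEH overlap.

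Subunits of the origin recognition complex moved in different directions. ORC1, the subunit whose level is known to cycle, measured 5.48, 5.83, 5.74 and 5.48 TPM in VEH, 2.33, 2.26, 2.22 and 2.13 TPM in CJ28 and 5.24, 5.80, 5.63 and 5.93 TPM in MET. Its decrease (log2 fold change -1.30, SE 0.0556, adjusted p = 1.16e-09) was the largest in the complex. ORC3 (-0.40, 16.8 to 12.8 TPM) and ORC6 (-0.37, 12.4 to 9.62 TPM) fell by smaller log2 amounts, with adjusted p of 1.45e-04 and 9.91e-06 by limma.

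ORC4 rose, from 17.5, 15.2, 16.4 and 16.8 TPM in VEH to 19.8, 19.9, 20.1 and 19.4 TPM in CJ28, while the MET samples measured 15.7, 15.3, 19.2 and 14.7 TPM. All CJ28 samples exceeded all others (log2 fold change 0.27, SE 0.0724, adjusted p = 0.00738), and ORC4 was called higher under each scaling. ORC2 measured 7.92, 6.76, 7.72 and 7.80 TPM in VEH, 8.10, 10.01, 9.42 and 7.98 TPM in CJ28 and 5.47, 8.47, 7.31 and 7.46 TPM in MET. Its CJ28 samples also lay above the VEH samples, the nearest pair by only 7.98 against 7.92 TPM, and the difference missed the threshold (log2 fold change 0.23, SE 0.119, adjusted p = 0.124) but passed it at 0.38 (adjusted p = 0.0198) with median-of-ratios scaling. ORC5 measured 10.3, 10.8, 9.90 and 9.98 TPM in VEH, 8.43, 9.23, 8.85 and 10.6 TPM in CJ28 and 10.9, 11.6, 10.9 and 9.62 TPM in MET, an overlapping set (log2 fold change -0.15, SE 0.0736, adjusted p = 0.109). Without CJ28 replicate 4, the sample at 10.6 TPM, ORC5 passed at -0.21 (limma adjusted p = 0.0157), and under the median-of-ratios and protein-coding scalings its value was 0.00 and 0.06. The exons of ORC4 overlap those of ACVR2A and MBD5 on the opposite strand by 431 and 157 bases. ACVR2A stood at 4.73 TPM in VEH and 4.92 TPM in CJ28, and MBD5 at 10.5 and 9.61 TPM.

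ORC1, the least abundant subunit in each group, stood further below the most abundant one in CJ28. The next lowest, ORC2, was at 7.55 TPM in VEH and 8.88 TPM in CJ28. The most and the least abundant ORC subunit differed 2.99-fold in VEH (ORC3 over ORC1), 3.02-fold in MET and 8.86-fold in CJ28 (ORC4 over ORC1). Over the 6 subunits the log2 fold changes spanned 1.56 units, against 0.53 units over the 6 MCM2-7 subunits, where the ratio of highest to lowest subunit was 3.82 in VEH and 3.32 in CJ28. The RFC loader spanned 0.75 units, and its ratio also rose, from 2.52 in VEH to 3.40 in CJ28. Polymerase alpha-primase spanned 0.90 units, GINS 0.46 and the single-strand binding protein RPA 0.32. Their ratios were smaller in CJ28 than in VEH (2.56 against 2.96, 1.79 against 2.46 and 1.78 against 2.03).

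Among the loading factors, the inhibitor GMNN fell more than CDT1, which it controls. GMNN encodes geminin, which keeps CDT1 from loading MCM again, and it measured 26.4, 28.1, 30.6 and 29.9 TPM in VEH, 13.6, 12.2, 12.8 and 12.8 TPM in CJ28 and 29.5, 30.1, 26.8 and 27.9 TPM in MET. It fell with log2 fold change -1.16, SE 0.0548, adjusted p = 2.83e-09. CDT1 measured 6.17, 6.72, 6.37 and 6.60 TPM in VEH, 5.21, 5.53, 5.28 and 5.86 TPM in CJ28 and 5.93, 5.91, 5.74 and 6.17 TPM in MET, so that its highest CJ28 sample was just below its lowest VEH sample (log2 fold change -0.24, SE 0.0516, adjusted p = 0.00171). The CDT1 call was lost under both other scalings (-0.09, adjusted p = 0.133, and -0.04, adjusted p = 0.589). CDC6, which joins ORC in loading the helicase, went from 32.2 ± 1.98 to 23.5 ± 1.21 TPM (log2 fold change -0.45, SE 0.0499, adjusted p = 7.01e-06).

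All 6 genes of the MCM2-7 helicase, the ring that unwinds DNA, were lower with CJ28, with a median of -0.74. MCM2, which changed most, measured 40.2, 34.4, 34.8 and 39.0 TPM in VEH, 18.8, 20.5, 19.4 and 22.1 TPM in CJ28 and 37.7, 40.2, 35.3 and 38.1 TPM in MET (log2 fold change -0.87, SE 0.0644, adjusted p = 1.68e-07). MCM5, which changed least, measured 35.2, 31.0, 34.4 and 34.3 TPM in VEH, 23.6, 27.2, 26.4 and 29.3 TPM in CJ28 and 32.8, 32.8, 34.0 and 35.4 TPM in MET (log2 fold change -0.34, SE 0.0613, adjusted p = 4.25e-04). In both genes the CJ28 samples lay below all VEH samples, although MCM5 missed the threshold when TPM were rescaled to protein-coding genes (-0.14, adjusted p = 0.0638). MCM4 (-0.87) remained the most abundant subunit, at 78.2 TPM in VEH and 42.9 TPM in CJ28. MCM7 (-0.82, 65.8 to 37.3 TPM), MCM6 (-0.66, 20.5 to 12.9 TPM) and MCM3 (-0.58, 54.3 to 36.3 TPM) lay between MCM2 and MCM5 in log2 fold change.

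The 8 factors that activate the loaded helicase all fell, with a median of -0.91 and no overlap between CJ28 and VEH in any of them. GINS2 measured 10.4, 11.6, 9.82 and 11.2 TPM in VEH, 4.44, 3.69, 5.04 and 3.93 TPM in CJ28 and 10.6, 11.4, 10.6 and 11.5 TPM in MET (log2 fold change -1.32, SE 0.0876, adjusted p = 6.50e-08). The other subunits of the 4-part GINS ring, which travels with the helicase, fell by 1.29 (GINS3), 0.93 (GINS1) and 0.85 (GINS4) on the log2 scale. GINS4 was the least certain of these, with an SE of 0.166. MCM10, needed for origin firing, went from 10.8 ± 1.501 to 4.61 ± 0.641 TPM (log2 fold change -1.21).

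CDC45, the third part of the moving helicase, changed least of the 8. It measured 22.6, 25.7, 23.3 and 23.1 TPM in VEH, 15.2, 14.9, 14.96 and 14.8 TPM in CJ28 and 22.3, 23.4, 20.9 and 21.9 TPM in MET (log2 fold change -0.65, SE 0.0460, adjusted p = 1.11e-07). The kinase CDC7 measured 13.6, 15.1, 14.1 and 14.0 TPM in VEH, 8.21, 6.87, 7.71 and 7.50 TPM in CJ28 and 16.1, 15.1, 13.9 and 14.8 TPM in MET (log2 fold change -0.90, SE 0.0610, adjusted p = 7.84e-08). DBF4, without which CDC7 is inactive, measured 29.0, 29.9, 28.4 and 28.2 TPM in VEH, 16.5, 17.2, 19.3 and 17.5 TPM in CJ28 and 27.7, 29.5, 27.6 and 28.1 TPM in MET (log2 fold change -0.71, SE 0.0464, adjusted p = 5.54e-08). Both partners of the kinase thus fell, and every CJ28 sample was below every VEH and MET sample.

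Of the 8 polymerase and primase genes 7 fell, and PRIM1 did not pass the test. POLA2, the accessory subunit of polymerase alpha, measured 17.9, 20.1, 19.9 and 17.3 TPM in VEH, 8.89, 10.3, 11.2 and 11.4 TPM in CJ28 and 16.2, 18.6, 17.2 and 20.8 TPM in MET (log2 fold change -0.84, SE 0.0922, adjusted p = 6.51e-06). PRIM1, the catalytic subunit of primase in the same complex, measured 9.47, 9.57, 10.1 and 9.98 TPM in VEH, 10.8, 10.02, 10.5 and 9.46 TPM in CJ28 and 10.4, 12.4, 9.66 and 10.6 TPM in MET. Its groups overlapped (log2 fold change 0.06, SE 0.0700, adjusted p = 0.503), and it was called higher with median-of-ratios scaling (0.21, adjusted p = 0.025) and with protein-coding scaling (0.26, adjusted p = 0.00301). PRIM1 shares 139 of 3309 exonic bases on the same strand with NACA, a far more abundant gene that stood at 371 TPM in VEH and 510 TPM in CJ28, and 362 bases with AC117378.1, at 1.09 and 0.343 TPM. The part of these neighbours in the PRIM1 value was not tested.

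The second primase subunit, PRIM2, went from 6.34 ± 0.264 to 4.20 ± 0.442 TPM (log2 fold change -0.59, SE 0.0721, adjusted p = 1.80e-05), and POLA1, the catalytic subunit of polymerase alpha, from 7.31 ± 0.598 to 4.08 ± 0.736 TPM (log2 fold change -0.84, SE 0.104, adjusted p = 1.92e-05). Thus 3 of the 4 genes of the polymerase alpha-primase complex fell. Of polymerase epsilon, which copies the leading strand, POLE fell by 0.58 and POLE2 by 0.72 on the log2 scale. Of polymerase delta, which copies the lagging strand, POLD1 fell by 0.40 and POLD3 by 0.33, and the POLD3 call was lost with protein-coding scaling (-0.13, adjusted p = 0.101). Of its subunits outside the 48 genes, POLD2 fell by 0.40 and POLD4 was not called (0.24, limma adjusted p = 0.122). POLD4 was called higher under both other scalings. These subunits are named here after their values were seen. POLA2 shares 2012 of 12006 exonic bases on the same strand with AP000944.5 (1.29 TPM in VEH, 0.427 TPM in CJ28), and POLD3 shares 123 of 5501 with AP001372.2 (1.69 and 0.845 TPM). Both neighbours were listed at far lower levels than POLA2 and POLD3 themselves, and their part in the POLA2 and POLD3 values was not tested.

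Of the sliding clamp and its loader, PCNA and 3 small subunits fell, and the large subunit was called higher. PCNA, the ring that tethers polymerases and the most abundant of the 48 transcripts in VEH, measured 106, 113, 111 and 108 TPM in VEH, 43.8, 41.6, 41.9 and 38.7 TPM in CJ28 and 113, 112, 112 and 109 TPM in MET. Its level in CJ28 was 0.378 of that in VEH (log2 fold change -1.40, SE 0.0378, adjusted p = 1.84e-11). RFC1, the large subunit of the loader that places PCNA on DNA, measured 35.1, 39.7, 33.8 and 39.9 TPM in VEH, 44.6, 39.2, 44.3 and 38.7 TPM in CJ28 and 36.9, 37.2, 35.4 and 38.1 TPM in MET. RFC1 was called higher (log2 fold change 0.17, SE 0.0641, adjusted p = 0.041), but 2 of its CJ28 samples lay within the VEH range. Leaving out CJ28 replicate 1 (0.13, adjusted p = 0.116), CJ28 replicate 3 (0.14, adjusted p = 0.111), VEH replicate 1 (0.14, adjusted p = 0.105) or VEH replicate 3 (0.12, adjusted p = 0.121) ended the call.

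RFC5, a small subunit, measured 16.3, 17.1, 19.1 and 17.5 TPM in VEH, 15.5, 15.8, 16.5 and 15.9 TPM in CJ28 and 15.9, 16.3, 16.3 and 13.9 TPM in MET. Its groups overlapped and it missed the threshold (log2 fold change -0.13, SE 0.0594, adjusted p = 0.071). RFC5 was called lower without VEH replicate 1 (-0.17, adjusted p = 0.0372), while the other scalings gave 0.02 and 0.07. Its exons overlap WSB2 on the opposite strand by 186 of 3249 bases, and WSB2 went from 19.7 TPM in VEH to 14.4 TPM in CJ28. The remaining loader subunits RFC3 (-0.58, 18.4 to 12.3 TPM), RFC4 (-0.40, 24.9 to 18.8 TPM) and RFC2 (-0.27, 14.8 to 12.3 TPM) were lower, the last not under the other scalings (-0.12, adjusted p = 0.151, and -0.06, adjusted p = 0.381).

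Both enzymes that finish Okazaki fragments fell. FEN1, the flap endonuclease, measured 38.1, 40.1, 41.6 and 40.1 TPM in VEH, 18.4, 17.7, 17.5 and 16.9 TPM in CJ28 and 39.7, 39.2, 39.2 and 38.8 TPM in MET (log2 fold change -1.17, SE 0.0355, adjusted p = 4.87e-11). Its exons share 49 of 2198 bases on the same strand with FADS2, a fatty acid desaturase gene that went from 68.2 TPM in VEH to 8.21 TPM in CJ28 and stood at 64.1 TPM in MET, and its part in the FEN1 value was not tested. LIG1, the DNA ligase that seals the nicks, measured 24.8, 22.4, 20.3 and 23.4 TPM in VEH, 12.6, 13.1, 11.4 and 13.1 TPM in CJ28 and 23.0, 20.6, 21.8 and 20.4 TPM in MET (log2 fold change -0.85, SE 0.0669, adjusted p = 3.06e-07). For both, CJ28 lay wholly below VEH.

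The single-strand binding protein RPA has 3 subunits, and all were called lower. RPA3 measured 35.9, 36.6, 39.3 and 33.3 TPM in VEH, 22.3, 19.0, 22.9 and 20.4 TPM in CJ28 and 38.7, 37.8, 38.1 and 31.7 TPM in MET (log2 fold change -0.78, SE 0.0764, adjusted p = 2.46e-06). RPA2 measured 16.8, 18.3, 18.2 and 18.1 TPM in VEH, 12.8, 12.7, 13.2 and 13.0 TPM in CJ28 and 17.1, 17.6, 18.5 and 17.7 TPM in MET (log2 fold change -0.46, SE 0.0394, adjusted p = 6.91e-07). CJ28 samples of RPA2 and RPA3 did not overlap those of VEH. RPA1, the large subunit, had the widest spread of the 48 genes, with 13.2, 16.9, 17.4 and 24.4 TPM in VEH (coefficient of variation 26.1%, against a median of 5.83%) and 11.3, 13.8, 9.74 and 12.8 TPM in CJ28. The RPA1 groups overlapped, although limma called it lower (log2 fold change -0.57, SE 0.152, adjusted p = 0.00675).

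UHRF1 and SLBP serve the copying of chromatin marks and the supply of histones. UHRF1, which brings the maintenance DNA methyltransferase to new DNA, measured 14.6, 15.2, 14.5 and 15.3 TPM in VEH, 4.14, 4.04, 3.64 and 4.59 TPM in CJ28 and 14.0, 14.6, 14.7 and 14.6 TPM in MET. Its decrease (log2 fold change -1.84, SE 0.0597, adjusted p = 8.76e-11) was exceeded among the 48 genes by that of RRM2 alone. SLBP, which binds the stem-loop of histone mRNAs, measured 38.5, 37.2, 38.0 and 37.3 TPM in VEH, 26.5, 27.2, 28.8 and 25.3 TPM in CJ28 and 37.1, 35.6, 37.6 and 34.9 TPM in MET. It fell less (log2 fold change -0.49, SE 0.0414, adjusted p = 6.46e-07) and had the smallest relative spread in VEH, at 1.59%.

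**Figure D4:**
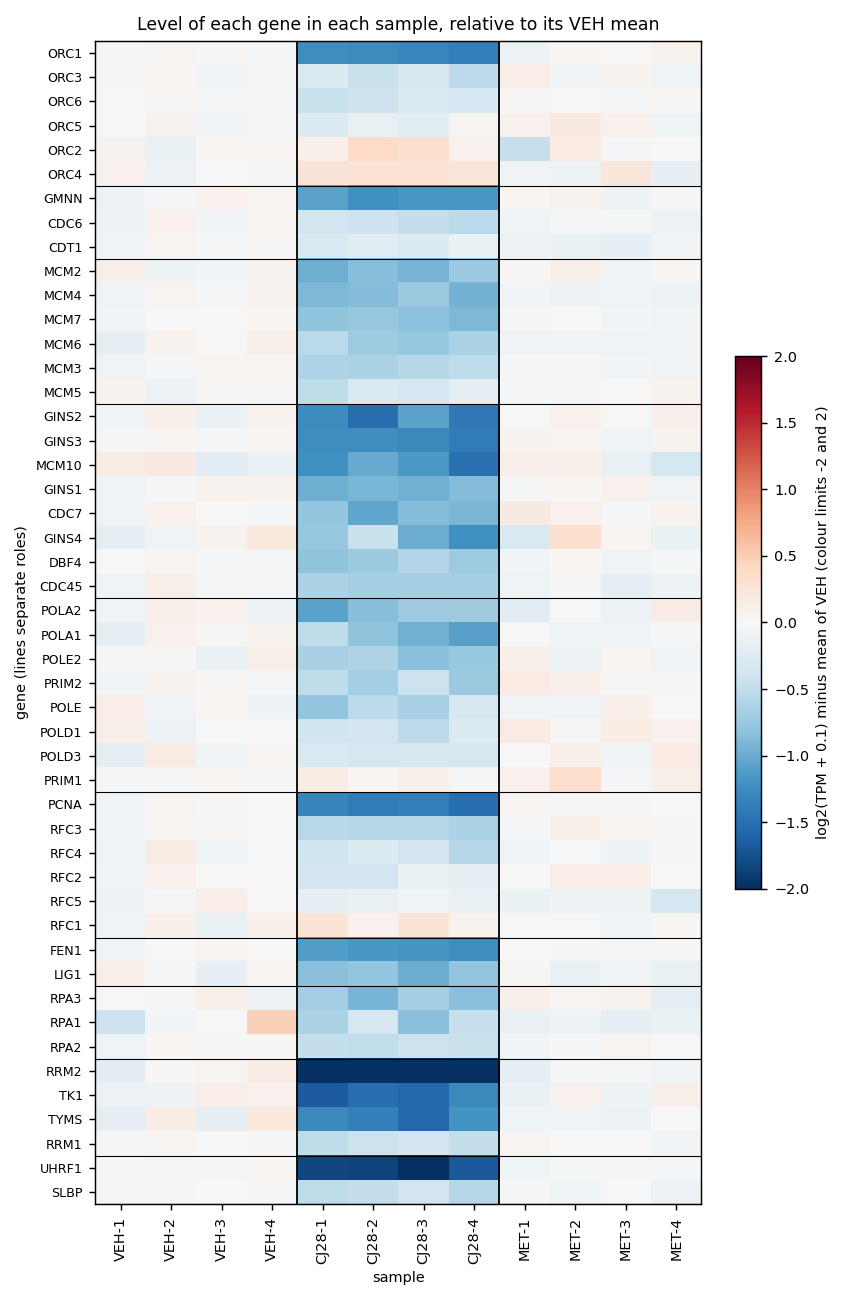
Each of the 12 samples is a column and each of the 48 genes a row, coloured by log2(TPM + 0.1) minus the mean of VEH, with colour limits at -2 and 2 and lines between roles. The 4 CJ28 columns are blue in most rows and pale in ORC2, ORC4, ORC5, PRIM1, RFC1 and RFC5. The log2 fold changes of these pale rows lie between -0.15 (ORC5) and 0.27 (ORC4). The 4 MET columns lie near the VEH mean.

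The log2 fold change was only weakly related to the level of a gene. Across the 48 genes, Pearson's r between the log2 VEH level and the log2 fold change was -0.22 and Spearman's rho -0.14, given as a description, since both share the VEH samples and genes are not independent. Of the 48, 20 belong to a 43-gene list widely used to score S phase in single cells, and 19 of these were called lower (median -0.75), the exception being PRIM1. Of the 28 outside it, 23 were lower and 2 higher (median -0.58). Leaving out the 6 genes with a same-strand exon overlap, 37 of 42 were lower and 2 higher (background 37.1% and 19.9%). This alternative was chosen after seeing the data. Exon overlaps on the opposite strand, found in 19 of the 48, were not left out, although the strand setting is not known.

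Most of 44 further replication pathway genes that are not among the 48 were lower as well. Of these, 38 were called lower and 2 higher in CJ28 against VEH, with a median of -0.58 (background 37.1% lower and 19.9% higher), and 30 lower and 3 higher under median-of-ratios scaling (background 26.3% and 29.3%). The largest decreases were in ASF1B, a histone chaperone, TICRR, needed for origin firing, and DTL, the adaptor of the ligase that degrades CDT1. ASF1B measured 16.4, 15.1, 14.5 and 15.3 TPM in VEH and 5.10, 5.18, 4.76 and 4.49 TPM in CJ28 (log2 fold change -1.63, SE 0.0553, adjusted p = 1.27e-10). TICRR measured 8.40, 9.63, 7.77 and 9.68 TPM in VEH and 3.19, 3.22, 2.71 and 3.07 TPM in CJ28 (log2 fold change -1.51, SE 0.0777, adjusted p = 5.93e-09). DTL measured 20.3, 21.2, 20.2 and 21.0 TPM in VEH and 7.75, 7.27, 7.91 and 8.12 TPM in CJ28 (log2 fold change -1.40, SE 0.0460, adjusted p = 1.01e-10). In none of the 3 did the groups overlap.

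The 2 genes called higher changed little. CAD, which starts pyrimidine synthesis, measured 6.75, 7.67, 7.52 and 8.32 TPM in VEH, 8.63, 9.03, 7.99 and 9.47 TPM in CJ28 and 5.84, 5.44, 6.13 and 6.68 TPM in MET, with some overlap between CJ28 and VEH (log2 fold change 0.21, SE 0.0789, adjusted p = 0.0352). TIPIN, of the fork protection complex, measured 9.33, 9.57, 9.14 and 8.09 TPM in VEH, 9.90, 10.4, 10.8 and 10.01 TPM in CJ28 and 9.74, 10.4, 9.19 and 8.19 TPM in MET (log2 fold change 0.19, SE 0.0740, adjusted p = 0.0478). Both calls rested on small margins, and the number of these 44 genes called higher was 0 without CJ28 replicate 2, CJ28 replicate 4, VEH replicate 1 or VEH replicate 3, and 1 without any other of the 8 samples.

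With MET at the same dose and time, 0 of the 48 genes were called against VEH by limma, where 0.00595% of all genes tested (1 gene) was called. Without adjustment 2 of them, CDT1 and RFC5, passed 0.05, against a background of 5.2%. Log2 fold changes ran from -0.17 to 0.13 with a median of -0.01, and 29 of the 48 were below 0. No gene had all MET samples on 1 side of all VEH samples, against a background of 2.03% lower and 0.779% higher. The 95% intervals reached at most -0.47 (RPA1) and 0.34 (GINS4), so larger differences lay outside every interval. For RRM2 the interval was -0.26 to 0.09, for UHRF1 -0.18 to 0.08 and for PCNA -0.06 to 0.11. Of the 44 further pathway genes, 0 were called. Without adjustment 5 of them (11.4%) passed 0.05, beside the background of 5.2%, namely CAD, CHTF18, RNASEH2A, DTL and TICRR. In 3 (6.82%), CAD, DTL and SAMHD1, all MET samples lay below all VEH samples (background 2.03%), and in 1 (2.27%), CHTF18, above them (background 0.779%). CHTF18, RNASEH2A and SAMHD1 are named here after their values were seen. CAD had the lowest log2 fold change of the 44, at -0.32 (limma, adjusted p = 0.889).

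Both comparisons above share the VEH samples. Compared directly, CJ28 and MET differed in 45 of the 48 genes, with 42 lower and 3 higher in CJ28 (background 55.5% called, 34.6% lower and 20.9% higher). This comparison shares its CJ28 samples with that against VEH. The median log2 fold change was -0.64, against -0.11 for all genes, and 41 genes had all CJ28 samples below all MET samples (background 31.3%). RRM2 was lower by 2.71 log2 units (SE 0.0816, adjusted p = 4.61e-11) and UHRF1 by 1.80 (SE 0.0597, adjusted p = 1.13e-10).

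The genes higher in CJ28 than in MET were ORC2 (log2 fold change 0.31, SE 0.119, adjusted p = 0.0405), ORC4 (log2 fold change 0.29, SE 0.0724, adjusted p = 0.00404) and RFC1 (log2 fold change 0.17, SE 0.0641, adjusted p = 0.036). ORC2 had 1 MET sample, replicate 1, at 5.47 TPM, and without it the difference was 0.19 (adjusted p = 0.105). Leaving out CJ28 replicate 2 or 3 or MET replicate 3 or 4 also ended the ORC2 call, with adjusted p of 0.0512 to 0.113. RFC1 was no longer called without CJ28 replicate 1 or 3 or MET replicate 1, 2 or 3 (adjusted p of 0.0596 to 0.104). Not called were CDT1 (-0.12, adjusted p = 0.0717, interval -0.23 to -0.00), PRIM1 (-0.08, adjusted p = 0.377, interval -0.23 to 0.08) and RFC5 (0.03, adjusted p = 0.66, interval -0.10 to 0.16). RFC5 was called higher with protein-coding scaling (0.22, adjusted p = 0.00389), where RFC2 was no longer called lower (-0.14, adjusted p = 0.0562). CDT1 passed without CJ28 replicate 4 (-0.15, adjusted p = 0.0276). The calls of ORC5 (-0.21, adjusted p = 0.0264) and RPA1 (-0.42, adjusted p = 0.0315) were the least secure of the 42, and both were lost under the other scalings. ORC5 was also lost without CJ28 replicate 1, 2 or 3 or MET replicate 1, 2 or 3 (adjusted p of 0.0507 to 0.0812), and RPA1 without CJ28 replicate 1 or 3 or MET replicate 1, 2 or 4 (adjusted p of 0.0555 to 0.0935).

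Ratios of 2 genes within a sample do not depend on how the sample is scaled. ORC1 to ORC2 was 0.692, 0.862, 0.744 and 0.703 in VEH, 0.288, 0.226, 0.236 and 0.267 in CJ28 and 0.958, 0.685, 0.770 and 0.795 in MET. The CJ28 values were all below the others, and the log2 ratio differed by -1.56 from VEH. RRM2 to RRM1, the S-phase subunit of the reductase over its partner, was 1.66, 1.85, 1.95 and 2.13 in VEH, 0.347, 0.400, 0.321 and 0.407 in CJ28 and 1.59, 1.83, 1.83 and 1.87 in MET, a difference of -2.36. CDT1 to GMNN, the loading factor over its inhibitor, went the other way, with 0.234, 0.239, 0.208 and 0.221 in VEH, 0.382, 0.453, 0.413 and 0.459 in CJ28 and 0.201, 0.197, 0.214 and 0.221 in MET, a difference of 0.92. By the two-sided exact permutation test each of these 3 differences had p = 0.0286, the smallest that 4 against 4 samples allow, and p = 0.049 after adjustment over the 12 ratio tests. The ratios are built from the same TPM values as the gene comparisons above, so they are no independent support for them.

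DBF4 to CDC7, the activating subunit over the kinase, was 2.14, 1.98, 2.02 and 2.01 in VEH, 2.01, 2.51, 2.50 and 2.33 in CJ28 and 1.73, 1.96, 1.99 and 1.89 in MET. CJ28 replicate 1 lay among the VEH values, and the difference from VEH of 0.19 did not pass (exact permutation p = 0.0857, adjusted p = 0.114). Without that sample it was 0.26 (exact permutation, adjusted p = 0.0429). Against MET the ratio was higher in all CJ28 samples, by 0.30 (exact permutation p = 0.0286, adjusted p = 0.049). The other ratios differed between CJ28 and MET by -1.65 (ORC1 to ORC2), 1.03 (CDT1 to GMNN) and -2.28 (RRM2 to RRM1), each with the same exact permutation p of 0.0286 and adjusted p of 0.049. Between MET and VEH the differences were 0.09, -0.11, -0.11 and -0.09 for ORC1 to ORC2, CDT1 to GMNN, DBF4 to CDC7 and RRM2 to RRM1, and none passed (exact permutation, adjusted p of 0.0857 to 0.486).

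**Figure D5:**
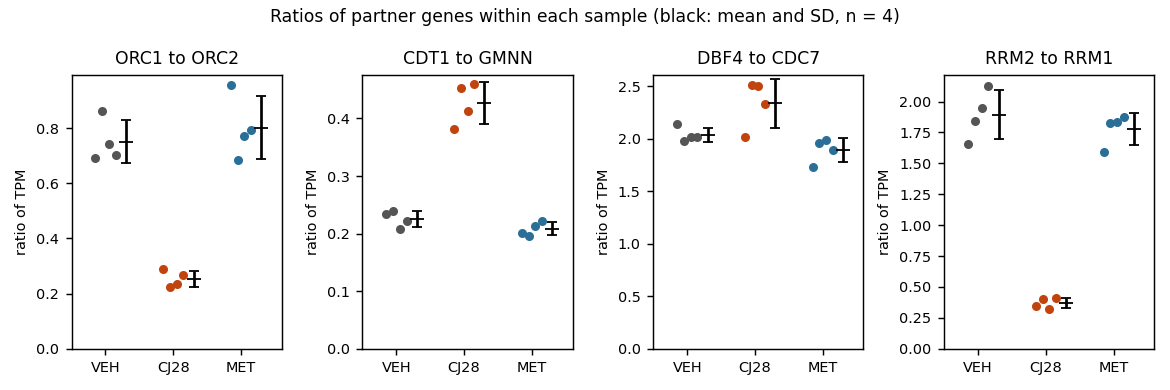
Ratios of TPM within each sample for 4 pairs of partner genes in VEH, CJ28 and MET, with the mean and SD (n = 4) in black. CJ28 samples are lowest for ORC1 to ORC2 (0.226 to 0.288) and RRM2 to RRM1 (0.321 to 0.407), and highest for CDT1 to GMNN (0.382 to 0.459), while DBF4 to CDC7 shows 1 CJ28 sample among the VEH samples.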

How the data were processed

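The authors made RNA-seq libraries from ribosome-depleted total RNA with a stranded kit and, per the submitters' processing notes, used Cutadapt 2.8, STAR 2.7.10b and RSEM 1.3.3 on GRCh38. They deposited a table of TPM with 2 decimals for 60662 genes and 12 samples. Annotation release and strand setting are not given in the sources used here. Since TPM keeps no depth, no count model was used, and precision is judged by the spread of 4 samples per group.

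The 16815 genes that reached a TPM of 0.5 in 4 samples or more were fitted with limma 3.58.1 (lmFit, eBayes with a trend) on log2(TPM + 0.1), all 12 samples in 1 fit, in R 4.3.3. P-values were adjusted by Benjamini-Hochberg over all genes tested and called under 0.05. Fold changes are on that log2 scale, which understates changes of low genes. The script was tested on simulated data. Ratios within a sample were compared by two-sided exact permutation tests in Python 3.11.15. Exon overlaps came from GENCODE release 44 (GRCh38), in which 40 of the 48 genes have the coordinates of the table, and promoters from RefSeq GRCh38.p14. Alternatives were other pseudocounts, filters, scalings and spread estimates, a replicate block, and leaving out each sample. The labels name no batch.

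Members and lists were chosen with earlier results of these data known. Values by sample are given for the genes with the largest and smallest change in each role, those that rose or missed the threshold, the genes of the ratios, and, of the further pathway genes, the 3 largest called decreases and up to 3 called increases.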

Additional observations from a re-analysis of the deposited data

Results flagged for a closer look

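In 156 sets of 4 samples (48 genes and 4 ratios in 3 groups), 5 had a sample whose gap to its nearest neighbour exceeded Dixon's 95% critical value as a share of the range, where chance gives about 1 in 20 sets. All 5 were the lowest of their group. RPA3 in MET replicate 4 was 31.67 TPM, against 37.78 to 38.68 TPM in the other MET samples. GINS3 in MET replicate 3 was 14.47 TPM, against 15.75 to 15.95 TPM. RFC3 in CJ28 replicate 4 was 11.85 TPM, against 12.37 to 12.45 TPM. RPA2 in VEH replicate 1 was 16.78 TPM, against 18.06 to 18.27 TPM. The ratio of RRM2 to RRM1 in MET replicate 1 was 1.59, against 1.83 to 1.87. Leaving out these samples changed no limma call of the same gene, while the ratio of RRM2 to RRM1 for CJ28 against MET was -2.33 on the log2 scale without MET replicate 1 (exact permutation, adjusted p = 0.0571).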

How the results depend on the processing

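The number of replication genes called lower stayed within 38 to 43 of 48 for CJ28 against VEH and 39 to 43 for CJ28 against MET under all alternatives that kept the 48 genes, and no called value changed sign. Numbers called higher were small and moved. For CJ28 against VEH they went from 2 to 1 with no filter, with the 2 groups alone, without a trend or with the replicate block, to 4 under both scalings, and to 1 to 2 with 1 sample left out. For CJ28 against MET they went from 3 to 1 with no filter or without a trend, and to 1 to 3 with 1 sample left out. The 44 further pathway genes had 2 called higher against VEH, which became 0 with no filter, 1 without a trend and 0 to 1 with 1 sample left out, and 1 against MET, which became 2 with median-of-ratios scaling and 4 with protein-coding genes alone. The cause of these moves was not tested.

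Equal replicate numbers are not stated to mark shared cultures. Correlations of same-numbered deviations were 0.00398 to 0.0394 for CJ28 and VEH, with 2 of 4 samples best matched by their own number. For MET and VEH they were -0.0631 to 0.0212, and for CJ28 and MET -0.124 to -0.00766, with 0 of 4 so matched in each. Such small values cannot decide whether cultures were shared. The replicate block left 43 of 48 genes called for CJ28 against VEH (42 lower) and 44 for CJ28 against MET (42 lower and 2 higher, from 3). The gene no longer called in either was RFC1 (limma adjusted p = 0.0731 against VEH and 0.0665 against MET), and the block changed no other call of a replication gene. For ratios a block over 4 pairs allows no p below 0.125 (exact), so -1.56, 0.92 and -2.36 against VEH and -1.65, 1.03, 0.30 and -2.28 against MET (ORC1 to ORC2, CDT1 to GMNN, then DBF4 to CDC7 against MET alone, and RRM2 to RRM1) could not pass by construction.

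With 1 sample left out, ratios against MET ranged from -1.73 to -1.57 (ORC1 to ORC2), 1.00 to 1.09 (CDT1 to GMNN), 0.26 to 0.37 (DBF4 to CDC7) and -2.33 to -2.21 (RRM2 to RRM1). Their adjusted p rose to 0.0571, and to 0.098 for DBF4 to CDC7, without MET replicate 1, 2 or 4, and for DBF4 to CDC7 without MET replicate 3 as well. Against VEH, DBF4 to CDC7 ranged from 0.16 to 0.26 for CJ28, passing without CJ28 replicate 1, and from -0.13 to -0.064 for MET, passing without MET replicate 3 (adjusted p = 0.049). The adjusted p of a ratio depends on how many of the 12 reach the smallest p.

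TPM is a share of all RNA, so a change common to all genes cannot be seen, and counting error of single values cannot be derived from TPM.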
